A study of Caenorhabditis elegans with 2 samples.

Results

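The nuclear genes for glycine, alanine, proline, threonine and cysteine tRNAs of Caenorhabditis elegans were examined for occupancy by an EGFP fusion of F26F4.8, a protein annotated as carrying a C2H2-type zinc finger. They were taken as the nuclear genes that Ensembl classes as tRNA and that RefSeq assigns to 1 of these 5 amino acids, without pseudogenic copies. There were 178 of them among 612 nuclear tRNA genes, with 55 for glycine, 42 for proline, 34 each for alanine and threonine, and 13 for cysteine. The remaining 434 served for comparison, including 5 whose amino acid RefSeq does not give.

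Sequencing of immunoprecipitated chromatin (ChIP-seq) was done with an anti-GFP antibody on sonicated material of whole fourth-stage (L4) larvae aged 48 hours, grown from first-stage larvae starved after bleaching. All animals were of strain OP776. It carries the integrated transgene wgIs776, which encodes F26F4.8 with TY1, EGFP and 3xFLAG tags together with a rescuing unc-119(+) gene, on the unc-119(tm4063) mutant background. There was 1 group of 2 biological replicates and no untagged or mock precipitation was used here. Whole animals were used, so a peak cannot be assigned to a tissue, and 1 transgenic strain stands for the factor.

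Genes for tRNAs are transcribed by RNA polymerase III from promoters that lie inside the gene. TFIIIC recognises an A box near the start and a B box in the part that encodes the T arm, and then places TFIIIB, which recruits the polymerase just upstream. A run of T residues after the gene ends transcription. Genomes hold many identical copies of most tRNA genes, so reads from inside a copy can often be placed only by their flanks.

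The genes were short and uniform: 153 of 178 were 72 bp long and the range was 64 to 83 bp. They had 54 distinct sequences, of which 42 occurred once and 12 more than once in the genome. A group of 8 sequences with 8 or more copies accounted for 123 genes. A stretch of at least 4 T residues began within 30 bp downstream of 175 genes. The sequences below show what the most common forms look like and how the single-copy forms discussed later depart from them. They come from the RefSeq sequence of WBcel235 (ce11) and run 5′ to 3′ on the coding strand, with the A box and then the B box in capitals.

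The first 4 lines show an alanine, a proline and a threonine sequence that recur in the genome 15, 24 and 15 times, and a threonine CGT sequence with 3 copies. F15G9.t2 lies at chrX:9743747-9743818, plus strand, T23F1.t2 at chrV:15465225-15465296, minus strand, W02G9.t1 at chrV:2664667-2664738, minus strand and C24H11.t1 at chrIII:11792782-11792853, plus strand.
F15G9.t2: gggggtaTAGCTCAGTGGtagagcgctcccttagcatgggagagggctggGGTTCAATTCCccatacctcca
T23F1.t2: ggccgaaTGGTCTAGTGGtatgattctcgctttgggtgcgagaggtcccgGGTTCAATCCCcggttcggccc
W02G9.t1: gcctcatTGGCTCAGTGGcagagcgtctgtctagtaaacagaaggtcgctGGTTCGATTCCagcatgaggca
C24H11.t1: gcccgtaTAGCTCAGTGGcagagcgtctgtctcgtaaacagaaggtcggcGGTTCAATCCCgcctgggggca

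The next 4 lines are single-copy genes that carried a listed peak, for glycine (B0244.t3, chrIII:5762057-5762126, minus strand), cysteine (T28C12.t1, chrV:6335398-6335469, plus strand), alanine (F44A2.t1, chrV:9318202-9318273, plus strand) and threonine (C52E12.t2, chrII:7003273-7003344, plus strand).
B0244.t3: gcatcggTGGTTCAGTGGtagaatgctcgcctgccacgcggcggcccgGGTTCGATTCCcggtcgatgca
T28C12.t1: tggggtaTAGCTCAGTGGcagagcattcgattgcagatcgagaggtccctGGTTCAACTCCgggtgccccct
F44A2.t1: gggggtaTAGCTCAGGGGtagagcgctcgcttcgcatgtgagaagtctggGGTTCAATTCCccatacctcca
C52E12.t2: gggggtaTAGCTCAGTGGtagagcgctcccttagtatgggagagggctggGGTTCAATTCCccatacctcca

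The last 4 are single-copy genes without one: T25B6.t1 (chrX:9025663-9025734, minus strand), T13B5.t2 (chrII:1102360-1102432, minus strand), C31E10.t1 (chrX:14010253-14010324, plus strand) and R02E12.t1 (chrX:3994602-3994678, plus strand).
T25B6.t1: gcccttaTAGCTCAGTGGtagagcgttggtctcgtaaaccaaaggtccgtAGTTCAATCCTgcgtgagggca
T13B5.t2: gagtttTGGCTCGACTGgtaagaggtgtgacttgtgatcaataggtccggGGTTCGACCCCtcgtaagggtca
C31E10.t1: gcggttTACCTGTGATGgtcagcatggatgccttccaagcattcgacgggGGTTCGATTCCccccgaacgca
R02E12.t1: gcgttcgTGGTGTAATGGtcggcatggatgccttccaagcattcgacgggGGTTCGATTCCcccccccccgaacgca

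A gene was counted as occupied when the summit of a peak in the authors' conservative list, called listed below, lay within 200 bp of it. That list keeps peaks found across replicates at an irreproducible discovery rate (IDR) of at most 0.01, and holds 0.889% of the ranked pooled peaks. Of the 178 genes, 116 (65.2%) had a listed peak, against 58.8% of all nuclear tRNA genes and 244 of the other 434 (56.2%). The 116 genes shared 98 peaks. A ranked peak of any strength lay at 160 genes, where the share over all nuclear tRNA genes was 90.7%. The deposited signal is the peak caller's enrichment in arbitrary units, and its median was 97.2 at the 160 genes (quartiles 73.9 and 126.5) against 83.7 at the other tRNA genes with a ranked peak. Most genes of the 5 amino acids therefore carried a strong peak, at a share near that of tRNA genes at large. Occupied means only that such a peak was listed. Without a mock precipitation for comparison, signal that does not depend on F26F4.8 cannot be separated from its binding.

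In the conservative list, alanine and threonine genes were listed most often, at 25 of 34 (73.5%) each, followed by cysteine at 9 of 13 (69.2%), proline at 25 of 42 (59.5%) and glycine at 32 of 55 (58.2%). That order depended on the list. In replicate 1's thresholded list the shares were 53.8% for cysteine, 44.1% for alanine, 42.9% for proline, 38.2% for threonine and 32.7% for glycine. Replicate 2's gave 53.8% for cysteine, 50% for alanine, 49.1% for glycine, 38.2% for threonine and 28.6% for proline. A single replicate thus moved threonine from 25 genes to 13 in either list, proline to 12 without replicate 1, and glycine to 18 and alanine to 15 without replicate 2. The single-replicate lists are shorter, with 376 and 366 peaks for replicates 1 and 2 against 978 in the conservative list. Of all nuclear tRNA genes they listed 33.3% and 34%, against 58.8%, so lower counts were general. Among the other amino acids represented by several genes, in the conservative list, the share ran from 25% for histidine to 74.4% for leucine. The median pooled signal was highest for cysteine, at 126, and then 110.7 for alanine, 92.3 for glycine, 90.7 for threonine and 89.5 for proline. Cysteine rests on 13 genes, 12 of them identical, so its median describes essentially 1 sequence.

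**Figure D1:**
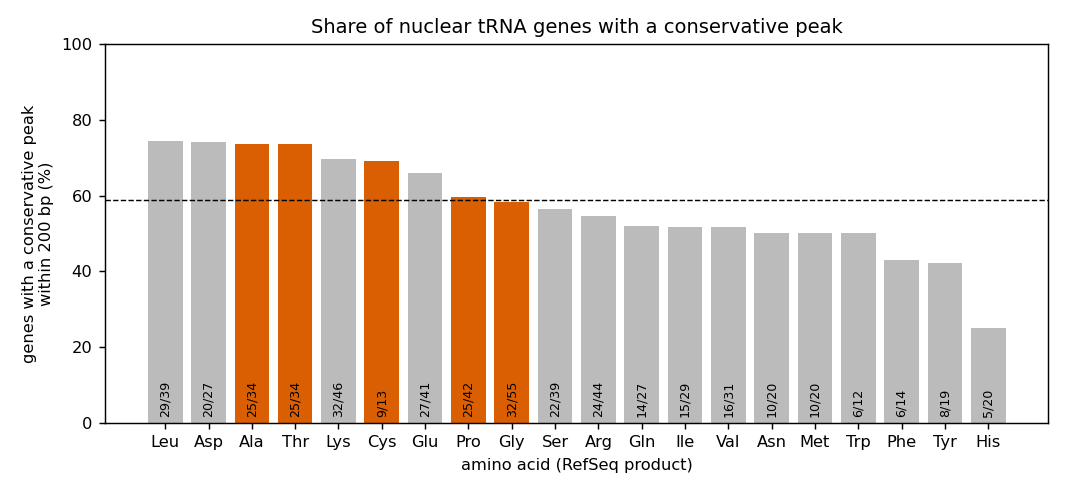
Share of nuclear tRNA genes with a listed (conservative) peak within 200 bp, by amino acid, as bars from 0 in percent. The 5 amino acids examined are in orange, the numbers in the bars are listed genes over all genes, and the dashed line is the 58.8% of all nuclear tRNA genes. Alanine and threonine stand at 73.5%, and proline and glycine lie beside the line.

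By anticodon the groups are small and were not tested against each other. All 4 alanine CGC genes were listed, with 17 of 22 AGC genes and 4 of 8 TGC genes. Threonine TGT genes were listed at 8 of 10, AGT at 13 of 17 and CGT at 4 of 7. Proline TGG, the largest proline group, had 20 of 32 listed, while AGG had 3 of 6 and CGG 2 of 4. Glycine TCC and GCC were alike at 22 of 36 and 10 of 16. Glycine CCC had none.

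Glycine CCC had 3 genes, T22A3.t2, T22A3.t3 and T22A3.t4. None had a summit within 200 bp in the pooled ranked list or in the ranked list of either replicate. They are identical copies of 83 bp, the longest genes of the set, and lie in introns of pash-1, which encodes the partner of Drosha in microRNA processing, on chromosome I. The nearest ranked summits were 6864 to 8455 bp away. The full A box pattern was missed at 1 position and the B box pattern was complete. With 3 identical genes at 1 locus, the effect of the sequence and that of the locus cannot be told apart.

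**Figure D2:**
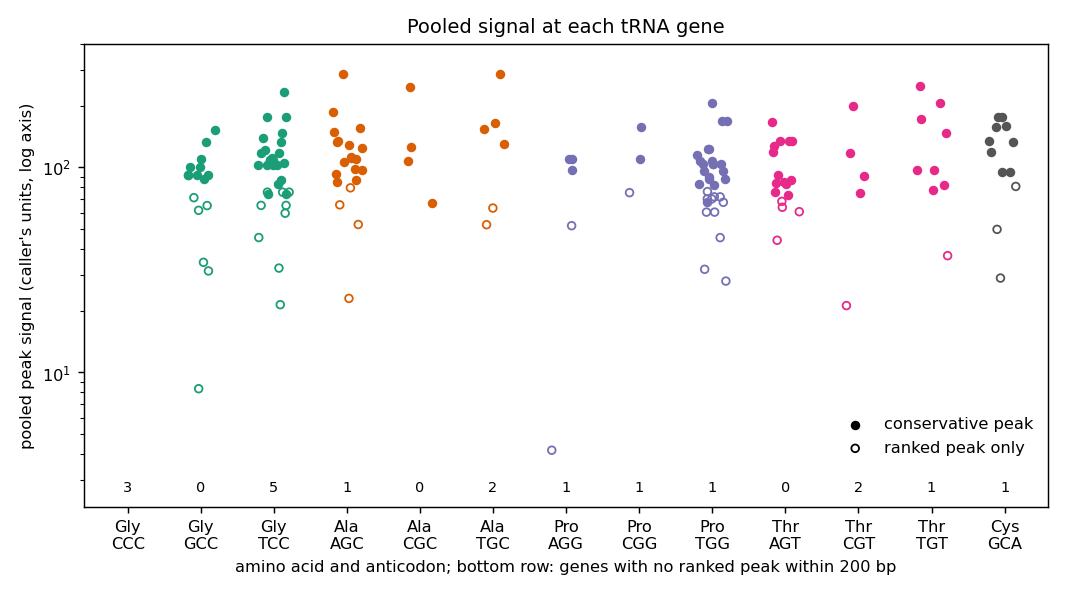
Pooled peak signal of each gene on a log axis, grouped by amino acid and anticodon. Filled points are listed, open points have only a ranked peak, and the bottom row counts genes with no ranked peak within 200 bp. All 4 alanine CGC genes are filled, and the 3 glycine CCC genes have no point.

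The strongest peak, 285.8, lay at a tandem alanine pair in an intron of him-4, the hemicentin gene: F15G9.t1 (TGC) and F15G9.t2 (AGC). Its summit was inside F15G9.t1 and 104 bp from F15G9.t2, which the peak did not reach. The peak's signal in each replicate's own ranked list was 128.6 in replicate 1 and 152.6 in replicate 2. F44A2.t1, a single-copy alanine CGC gene between protein-coding genes on chromosome V, had 247.6, with 119.7 and 122.0 in replicates 1 and 2. Both loci were thus high in either replicate. F34H10.t1, 1 of 15 copies of the alanine AGC sequence, followed with 185.7 (91.98 and 95.01).

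Threonine had its highest signal at F52C9.t1, a TGT gene in an intron on chromosome III, with 250.5 and replicate values of 106.4 and 143.6. R01H5.t1, an identical copy on the X chromosome, had 206.5, from 119.8 and 87.7. The 2 copies changed order between the replicates. C24H11.t1, the CGT gene printed above, had 199.1, with 107.7 and 83.3.

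The highest glycine and proline signals belonged to peaks shared with genes for other amino acids. M02F4.t1 (glycine TCC) had 233.3, with 126.0 and 111.4, but the same peak was the strongest one of M02F4.t2, a glutamate tRNA gene. T23F1.t2 (proline TGG) had 206.7, with 92.3 and 99.3, and its summit lay 157 bp from the gene's first base, inside the lysine tRNA gene T23F1.t1. In all, 7 listed genes shared their strongest peak with a tRNA gene outside the 5 amino acids. Without such neighbours, proline was highest at H06A10.t1 (168.7, from 68.7 and 88.5) and ZK899.t1 (168.2, from 83.4 and 84.3). For glycine, the divergent TCC pair T10B10.t1 and T10B10.t2 had 175.4 at a shared peak, from 85.2 and 86.8, and T03G6.t1 (GCC), with no tRNA gene nearby, had 151.5, from 76.4 and 76.2.

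Cysteine reached 177.0 at F12D9.t1, with 100.4 in replicate 1 and 81.1 in replicate 2. K04A8.t3, in an intron of the potassium channel gene twk-10, had 176.8, with 105.4 and 66.6. C37A2.t1, in an intron of the cyclin E gene cye-1, came next with 159.5, from 92.9 and 66.1. The first 2 genes are identical in sequence and nearly equal in pooled signal. R04E5.t5, another identical copy, had 28.9, no summit within 200 bp in replicate 1's list and 18.3 in replicate 2's.

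At the lower end, the weakest listed peak for alanine was 67.4, at C06B8.t1. Replicate 1's list had no summit within 200 bp of that gene, and replicate 2's gave 37.1. The weakest listed peak was 67.9 for proline (R11G10.t2, with 33.4 and 40.1). For threonine it was 73.5 (W09G10.t3, with 42.3 and 33.8) and for glycine 74.1 at the pair C12C8.t3 and C12C8.t4 (42.5 and 30.4). The summit of the threonine peak lay 87 bp from W09G10.t3, and W09G10.t2, a lysine tRNA gene, shares that peak. The cysteine genes K01A12.t4 and K01A12.t5 were lowest at 95.3 (50.2 and 32.9), on a peak that K01A12.t1, an arginine tRNA gene, shares. All listed peaks passed the same IDR threshold, so similar lowest signals for 4 of the 5 amino acids say nothing particular about them.

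Identical genes did not carry equal signals. To keep neighbours out, copies were compared only where no other tRNA gene lay within 400 bp and a ranked pooled peak was present. The 7 such cysteine copies spanned 28.9 to 176.8, a 6.12-fold range, and 8 of the 9 proline TGG copies 31.9 to 168.7 (5.30-fold). Glycine GCC copies covered a 4.40-fold range and threonine AGT copies a 3.78-fold range. Glycine TCC covered 75.7 to 147.3 (1.95-fold) over 9 of its 11 isolated copies, but Y57G11B.t1 and Y51H4A.t5, the other two, had no ranked pooled peak and so no value. The proline copy without one was F02H6.t1. Alanine AGC, with 12 copies between 79.5 and 185.7, covered 2.33-fold.

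The order of identical copies was repeated in some families and not in others. Between the replicates' own lists, Spearman's rho was 0.89 over 6 glycine GCC copies, 0.87 over 9 glycine TCC copies and 0.83 over 8 threonine TGT copies. It was 0.61 over 12 threonine AGT, 0.50 over 8 proline TGG, 0.37 over 11 alanine AGC and 0.09 over 6 cysteine copies. These are descriptions over few points that share a sequence and each replicate's library. How reads from identical copies were placed is not given in the sources used here, and its part in these ranges was not tested.

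Genes with copies were listed more often than genes without. Of 136 genes whose sequence recurs, 94 (69.1%) were listed, against 62.8% for other amino acids and 64.6% over all nuclear tRNA genes. Of the 42 single-copy genes 22 (52.4%) were listed, against 39.9% of all single-copy nuclear tRNA genes. Single-copy genes for other amino acids stood lower, at 35 of 101 (34.7%). That gap was small where no other tRNA gene lay within 400 bp. There the single-copy genes examined were listed at 10 of 26 (38.5%), and those for other amino acids at 30 of 87 (34.5%). Genes there whose sequence recurs were listed at 60 of 89 (67.4%), and those for other amino acids at 64.2%. The examined single-copy genes with a tRNA gene within 400 bp were listed at 12 of 16 (75%). Reads in a single-copy gene have 1 perfect place in the genome, although several of these genes lie beside a recurrent copy or differ from one at few bases.

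Several single-copy genes differed from an abundant relative at 1 or 2 positions, counted from 1 at the gene's 5′ end. C52E12.t2 differed from the 15-copy alanine AGC sequence only by C35T, the last anticodon base, which makes it a threonine AGT gene by its anticodon. It faces C52E12.t3, an alanine copy, in an intron of the kinesin gene unc-104, and the pair shared a listed peak of 84.5. T28C12.t1 differed from the 12-copy cysteine sequence by G1T and C31T and was listed at 119.0. F10C1.t1 departed from the 11-copy glycine GCC sequence by T24A and G69A and was listed at 92.3. F44A2.t1 and K06A4.t1, both alanine CGC, differed by T39C and had 247.6 and 126.1. R04E5.t1, which differs from R04E5.t2 of the 29-copy glycine TCC family by C2A, had no ranked peak. R04E5.t2 and R04E5.t3, family copies at the same locus, shared a peak of 65.3 and were not listed either. T25B6.t1 differed from the 9-copy threonine TGT sequence by T33C and G67A, kept both of its boxes and had 21.2 without being listed. Among the near-copies named here, R04E5.t1 and T25B6.t1 were the unlisted ones.

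The A box was searched on the coding strand near the gene's start, with 1 consensus of 11 letters. It allows alternatives at some positions but no inserted or missing base. The B box was searched with its standard consensus of the same length in the 3′ part. The boxes do not overlap. A complete A box was found in 65 genes (36.5%; 9.22% of the other nuclear tRNA genes) and a complete B box in 81 (45.5%; 42.4% of the others). The A box shares give the fit to that 1 consensus, and other forms or lengths of the box were not searched. Among the 115 genes with no tRNA gene within 400 bp, 41 of 52 with a complete A box were listed, with a median signal of 110.6. With 1 mismatch it was 19 of 40 (median 88.1), with 2 mismatches 10 of 19 (median 109.3), and with 3 or 4 mismatches 0 of 4 (median 41.3). The classes with 1 and with 2 mismatches were thus not in order, by share or by signal. C31E10.t1 (21.4) and T13B5.t2 (37.1), printed above, are the 2 with 4 mismatches. All 4 of the last class are single-copy genes, so divergence of the A box and lack of copies cannot be told apart.

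For the B box, listed genes numbered 28 of 52 with a complete box, 22 of 31 with 1 mismatch, 12 of 22 with 2 and 8 of 10 with 4. The last class was the threonine TGT family together with T25B6.t1, which share the form AGTTCAATCCT. Over the 100 isolated genes with a ranked peak, Spearman's rho with pooled signal was -0.26 for A box mismatches and 0.06 for B box mismatches, with -0.18 for the AT content of the 50 bp upstream. Genes of 1 family are not independent points, and the correlations are weak.

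Where a gene stood alone, the summit lay on it. At 70 listed genes with no tRNA gene within 400 bp, 55 summits (78.6%) fell inside the gene, 10 upstream and 5 downstream. The median was 22 bp from the first base (quartiles 11 and 39.5), against 23 bp at 197 isolated genes for other amino acids. The A box was centred at 12 bp and the B box at 55 bp in the median, and 48 summits were nearer the A box against 21 nearer the B box. All 9 isolated threonine AGT summits were nearer the A box, whereas glycine GCC had a median of 43 bp with 4 of 6 nearer the B box. Most listed peaks, 107 of 116 by gene, had the list's commonest width of 264 bp, which is wider than a gene, so differences of a few bp between groups carry little weight.

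**Figure D3:**
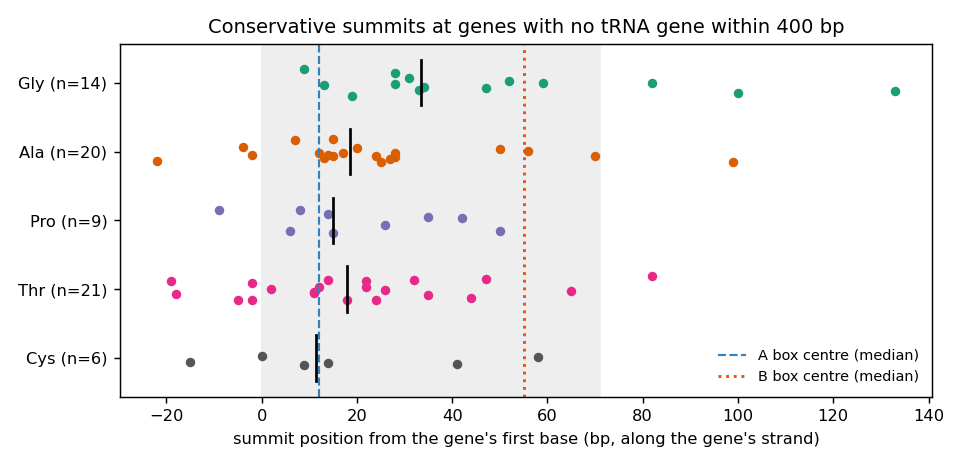
Position of the listed summit along the gene's strand, in bp from the first base, for 70 isolated genes by amino acid. Grey marks a gene of median length, the dashed and dotted lines the median A and B box centres, and black bars the group medians. Points gather between the gene's start and its middle, with glycine's median furthest in, at 33.5 bp.

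Head-to-head pairs were common. Of 29 adjacent pairs among the 178 genes within 400 bp, 25 were divergent, with the 5′ ends facing, 3 tandem and 1 convergent. Among adjacent pairs of other tRNA genes, 11 of 43 were divergent. In 24 of the 25 both genes served the same amino acid, and in 16 the genes were identical. Proline TGG made up 10 pairs and glycine TCC 9. The spacer between the genes was 98 to 301 bp (median 159).

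A listed peak lay at 20 of the 25 divergent pairs, and 18 of those had a single one. The search covered both genes, the spacer and 200 bp on either side. The count therefore cannot be set against the 58.8% of single tRNA genes, and pairs of other tRNA genes were not counted this way. At some pairs only 1 gene was itself listed, as with F12D9.t1 and not F12D9.t6. The strongest listed summit fell in the spacer at 11 pairs, on a gene at 8 (4 to the left, 4 to the right) and outside at 1. The median distance from the midpoint of the spacer was 65.5 bp. Signals of these listed peaks ran from 74.1 to 177.0 with a median of 103.3. The median of 97.2 over the 160 genes includes peaks that were not listed, so these medians differ in threshold. At T22F3.t4 and T22F3.t1 (proline TGG) the summit was 3 bp from the midpoint and the signal 123.3, from 63.6 in replicate 1 and 62.7 in replicate 2. The strongest listed peak reached both genes at 9 of the 20 pairs, and there occupancy of 1 gene and of both cannot be told apart. At the rest, the lack of overlap does not show that the other gene was unoccupied.

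The proline pair W09D6.t2 and W09D6.t1, in an intron of rsa-2, is shown because its genes are identical and their spacer is short, at 107 bp. It was 1 of the 2 divergent pairs with 2 listed peaks. The stronger peak had 104.2, with 62.3 and 43.9 in replicates 1 and 2. Its summit lay 50 bp to the left of the midpoint, 4 bp upstream of W09D6.t2. The line gives chrIII:11066848-11067098 of ce11 on the plus strand with both genes in capitals, W09D6.t2 reading leftward.
W09D6.t2 to W09D6.t1: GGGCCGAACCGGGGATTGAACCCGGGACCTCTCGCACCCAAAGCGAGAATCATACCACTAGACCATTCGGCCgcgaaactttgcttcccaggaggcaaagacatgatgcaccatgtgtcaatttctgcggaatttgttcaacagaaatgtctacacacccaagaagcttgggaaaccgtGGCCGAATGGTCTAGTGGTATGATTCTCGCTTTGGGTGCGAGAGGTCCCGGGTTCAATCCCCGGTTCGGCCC

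**Figure D4:**
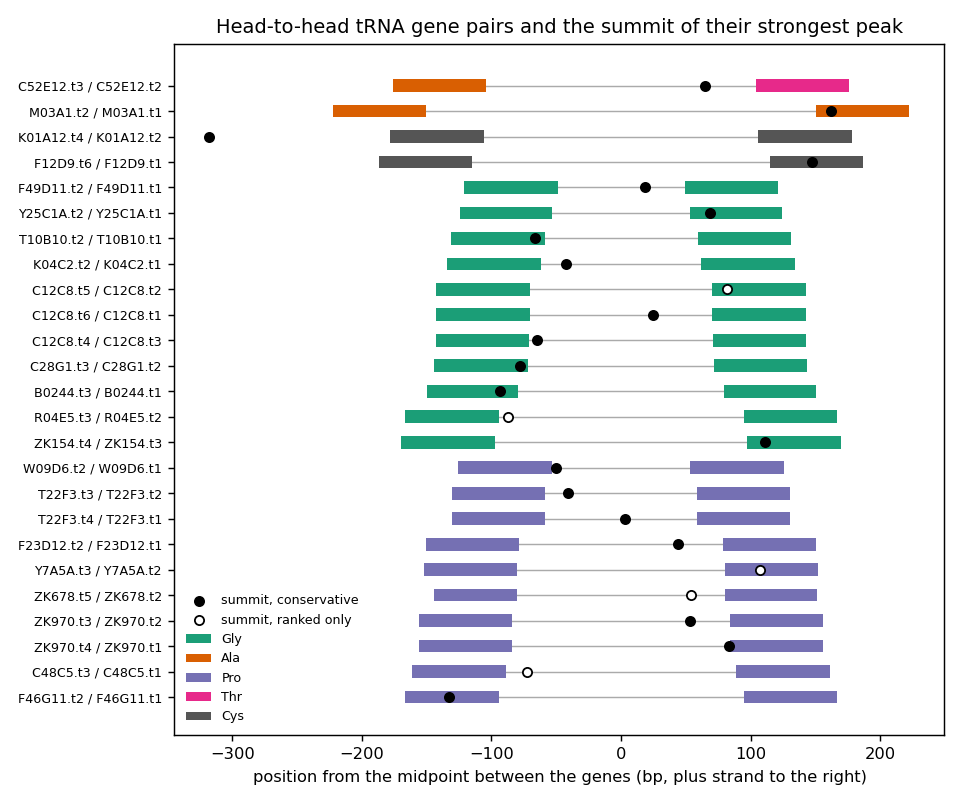
The 25 divergent pairs drawn to scale around the midpoint of the spacer, in bp. Coloured bars are the genes, and dots the summit of the pair's strongest peak, black where listed and white where only ranked. Of the 20 black dots 11 lie between the genes, and the dot furthest out belongs to K01A12.t4 and K01A12.t2, whose region also holds arginine tRNA genes.

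No ranked pooled peak lay within 200 bp of 18 genes. Of these, 9 were among the 17 genes on chromosome IV and 9 among the 161 elsewhere. For tRNA genes of other amino acids, 10 of 39 without a peak were on chromosome IV. The listed share was lowest on chromosome IV, at 7 of 17 (41.2%), and highest on chromosome III, at 17 of 18 (94.4%). Other tRNA genes did not show these extremes: 57.4% were listed on chromosome IV and 56.5% on chromosome III, and their lowest share was 38.5% on chromosome V. Leaving out chromosome IV gave 67.7% listed.

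The lists themselves reached less of chromosome IV. In windows of 10 kb, 20.1% of chromosome IV held no ranked pooled summit of any strength, against 3.99% to 8.31% of the other chromosomes. The same windows were empty for 18.5% of chromosome IV in replicate 1's list and 15.5% in replicate 2's. For C53D6.t1, Y37A1B.t1, Y57G11B.t1 and Y105C5A.t2 there was no pooled summit within 10 kb at all. Absence of a peak at these genes is therefore not a measured absence of signal.

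Replicate 2 alone placed strong peaks at some of them. Y57G11B.t1, an identical copy of the glycine TCC family, had 85.4 in replicate 2 and passed that replicate's threshold, while replicate 1's list and the pooled list held no summit within 10 kb. F02H6.t1 (proline TGG) had 63.6 in replicate 2 and also passed, with no replicate 1 summit within 200 bp. Of the 18 genes, 6 had a summit within 200 bp in replicate 2's list and 1 in replicate 1's. ZK154.t4, on the X chromosome, is a different case: the pooled summit, 105.4, lay 209 bp away on its divergent partner, ZK154.t3. The cause of the gaps was not tested.

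Genes within introns of protein-coding genes were listed at 65 of 87 (74.7%) and intergenic ones at 50 of 90 (55.6%). For other amino acids the shares were 59.2% and 53.7%. Without chromosome IV they were 76.5% in introns and 58.2% between genes, and 69.2% and 57.8% where the genes were also isolated. By replicate 2's own threshold the order was the opposite, with 40.2% in introns and 45.6% between genes, while replicate 1's gave 43.7% and 36.7%. The median pooled signal was 97.1 in introns and 100.9 between genes. The strand of the host gene made little difference, at 30 of 39 on the opposite strand and 36 of 49 on the same strand.

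The 2 replicates ranked the genes alike. Over 148 genes with a peak in both replicates' own lists, Spearman's rho was 0.74, and it was 0.75 over the 90 isolated ones, against 0.68 over 337 other tRNA genes. The points share peaks where genes are adjacent. By each replicate's own threshold 71 genes were listed in replicate 1, where 33.3% of all nuclear tRNA genes were, and 76 in replicate 2, where 34% were. Glycine TCC was listed at 12 genes in replicate 1 and 23 in replicate 2, and proline TGG at 16 and 10. The median log2 ratio of replicate 1 to replicate 2 was 0.40 for cysteine, 0.30 for proline, 0.29 for threonine, -0.03 for glycine and -0.05 for alanine, with an SD over all 148 genes of 0.49. The lists have no stated common scale, which would shift all these ratios alike, and the differences between amino acids were not tested.

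**Figure D5:**
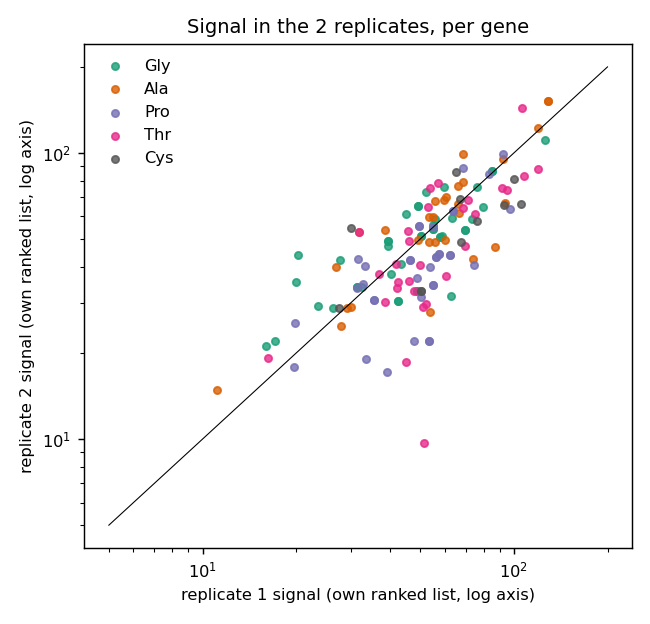
Signal of each gene in the ranked list of replicate 1 and of replicate 2, in the caller's units on log axes, coloured by amino acid, with the line of equal values. The 148 genes with both values follow the line (rho 0.74), with a threonine gene far below it.

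Near the IDR threshold of 0.01 the listed status separated similar signals. C06B8.t1 (alanine) was listed with 67.4 at an IDR of 0.0098, and C11E4.t1 (alanine) with 86.4 at 0.0084. R11G10.t1 (proline) fell outside with 76.2 at 0.0102, as did F11H8.t1 (threonine) with 68.3 at 0.0104. The highest signal without a listed peak was 80.8. Genes in this range differ in call more than in signal.

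The aminoacyl-tRNA synthetases, which charge these tRNAs, were examined for the same amino acids. All 7 genes (aars-1, aars-2, cars-1, gars-1, pars-1, pars-2 and tars-1) had a ranked peak within 500 bp of a transcription start, and 0 had a listed one. Among all 19973 nuclear protein-coding genes the shares were 74.9% and 1.24%, so with 7 genes a count of 0 says nothing particular about them. Their highest signals, all at unlisted peaks, ran from 8.64 at aars-2 to 59.0 at aars-1.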

How the data were processed

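ChIP-seq was deposited for 2 biological replicates as peak lists on ce11; the sources used here do not name the caller, the aligner or the read depth, and depth is therefore unknown. The authors' deposited signal is the caller's enrichment per peak in arbitrary units. The deposited −log10 values used are those of the global IDR. Pooled values come from the list that pairs the replicates, whose per-replicate columns are unnamed; replicate values come from each replicate's own ranked list instead. At 147 genes with all values, the first column equalled replicate 1 in 147 and the second replicate 2 in 144 (tolerance 0.0001).

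Peaks were assigned by summit within 200 bp of the gene, taking the strongest. Genes came from Ensembl release 115 and products from RefSeq, both WBcel235. Anticodons and boxes were found in the sequence, in code tested on simulated data. Analysis used Python 3.11.15, pandas 2.3.3 and SciPy 1.17.1. No test was made: there was 1 group. The genes, lists and rules were chosen with earlier results of these data known, and the text names the 3 strongest genes and the weakest listed gene of each amino acid, those beside the IDR threshold and the synthetases; other genes named were chosen after their values were seen.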

Additional observations from a re-analysis of the deposited data

How the results depend on the processing

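The count of 116 genes with a listed peak was 117 in the other thresholded pooled list, 103 within 100 bp and 122 within 500 bp, and 116 with the peaks past the threshold put back. It was 46 at an IDR of at most 0.001 and 66 with the summit required inside the gene. From a single replicate's thresholded list, which holds fewer peaks, it was 71 to 76. The listed share of 65.2% was 60.9% at isolated genes, 52.4% at single-copy genes and 67.7% without chromosome IV, the last chosen after seeing the data. The median signal of 97.2 was 107.6 with summits inside the gene, and 48.7 to 53.4 in a single replicate's list, whose scale is its own. The median summit offset of 12.5 bp was 13 in the other list, 13 by the nearest peak and 22 at isolated genes; a single replicate gave 5.5 to 6. No paired analysis was possible because there was 1 group. With 2 replicates and unknown depth, a missing peak does not show absence of binding. Peaks were not compared with a mock precipitation, and a listed peak therefore does not by itself show binding of F26F4.8.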
